A study of Glycine max with 12 samples.

Results

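A set of 21 soybean genes, of 57147 IDs in the count table, was barely detected in pods of control, water-deficit and heat-stressed plants and was present at a low level in every library from plants given both stresses. The genes were chosen on the level in CPM (a gene's count scaled by its library's total) in all 12 libraries. A gene had to lie under 0.5 CPM in each of the 9 libraries of control, water deficit and heat stress, reach at least 1 CPM in each of the 3 combined-stress libraries, and have a combined-stress mean under 10 CPM. Because these values chose the genes, the difference between combined stress and the other groups is described here and was not tested. Summed over the 21 genes, the level was 45.3 ± 13.1 CPM in combined stress, against 2.49 ± 0.524 in control, 2.77 ± 1.81 under water deficit and 2.23 ± 1.5 under heat (SD, n = 3 each).

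The pods came from Glycine max of the cultivar Magellan, inoculated with Bradyrhizobium japonicum, and stress began when the plants opened their first flowers after 16 to 18 days in pots. Control plants (CT) were kept at 28 °C in the day and 24 °C at night with 100% of the water they could transpire, and water-deficit plants (WD) received 30% at those temperatures. Heat-stressed plants (HS) received 100% and plants under combined stress (WD+HS) received 30%, with days at 38 °C and nights at 28 °C in both groups. Each of the 3 libraries of a group pooled pods (10 to 15) of several plants (8 to 10), and each group stood in a chamber of its own, so that group and chamber cannot be told apart.

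As background, water deficit closes stomata and saves water, whereas heat is met by opening them for evaporative cooling, so that the pair of stresses places opposing demands on a plant. In soybean the reproductive organs, pods among them, are known to keep transpiring under the combination while leaves close their stomata, which is the differential transpiration named in the study's title. Many stress-inducible plant genes are kept close to silent until a signal arrives, and a transcript that appears from a near-silent state is detected through few reads. The count and FPKM tables give IDs without names, and 0 of the 57147 IDs matched the RefSeq gene table at hand, so no function, sequence or coordinate is given for any of the 21 genes, and the tissue could not be checked against marker genes. By the naming of these IDs, the number before the letter G is the chromosome.

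Total counts per library ranged from 17310023 to 26591115, so that 3 counts, taken as the smallest detectable level, equalled 0.113 to 0.173 CPM. Of the 12 libraries, water deficit replicate 2 and heat stress replicate 3 stood apart at low counts. Among 2884 other IDs that were under 0.5 CPM in the same 9 libraries and had a mean there in the range of the 21 genes, 94.7% had 0 counts in water deficit replicate 2 and 79.3% in heat stress replicate 3, against 51.6 to 61.8% in the other 10 libraries. The 21 genes followed this split, with 19 of 21 at 0 counts in each of these libraries and 6 to 11 of 21 in the other 7 libraries without combined stress. Counting reads over whole pods cannot tell fewer cells of a type from less RNA per cell.

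Library by library, the summed level of the 21 genes was 1.88, 2.81 and 2.77 CPM in control replicates 1 to 3. It was 4.51, 0.897 and 2.91 CPM in water deficit, and 2.74, 3.41 and 0.537 CPM in heat stress. The 9 libraries of the 3 groups thus overlapped, and the lowest values were those of the libraries that stood apart. In combined stress the sum was 40.4, 60.2 and 35.5 CPM, so the mean of that group was 18.2 times that of control, 16.4 times that of water deficit and 20.3 times that of heat stress. Without water deficit replicate 2, the water-deficit mean was 3.71 ± 1.13 CPM (SD, n = 2), and the combined-stress mean was 12.2 times as high. Without heat stress replicate 3, the heat-stress mean was 3.07 ± 0.472 CPM (SD, n = 2), and the combined-stress mean was 14.7 times as high. In raw counts the 21 genes together took between 845 and 1047 counts in a combined-stress library and between 10 and 90 in any other.

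**Figure D1:**
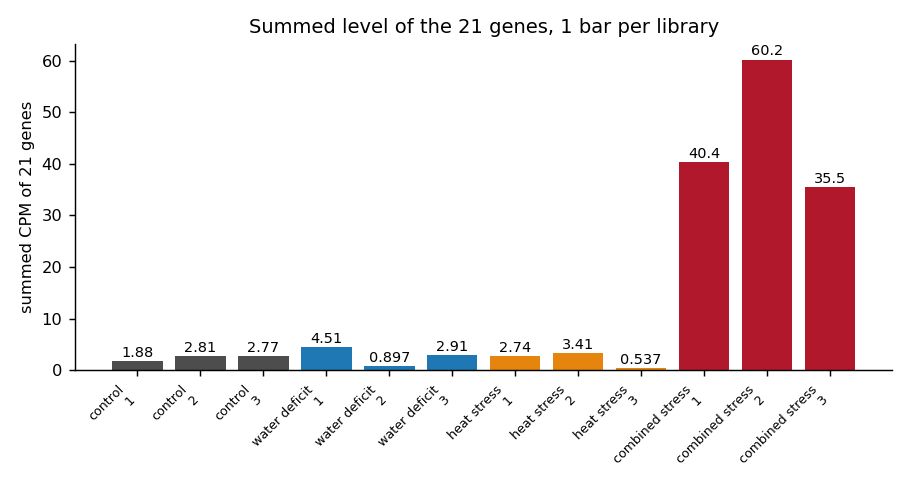
Summed CPM of the 21 genes (vertical axis, from 0) in each of the 12 libraries, 1 bar per library and coloured by group. The 9 libraries without combined stress lie between 0.537 and 4.51, and the 3 combined-stress libraries between 35.5 and 60.2, a gap that the choice of genes produced.

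The most abundant of the 21 genes was GLYMA_16G037600, on chromosome 16. It had 2, 1 and 4 counts in control replicates 1 to 3, then 8, 0 and 2 in water deficit, and 6, 0 and 0 in heat stress. In combined stress it had 47, 138 and 102 counts, or 2.11, 7.93 and 4.29 CPM, with a mean of 4.77 ± 2.94 CPM (SD, n = 3). Replicate 2 was thus the highest library and replicate 1 the lowest, and the 95% Wilson intervals of their levels, from 6.71 to 9.37 CPM and from 1.59 to 2.80 CPM, did not meet. Such intervals hold counting error and leave out the spread between plants and libraries. They take each read as independent, whereas the reads carry no molecular identifiers and may repeat a molecule. The intervals may thus be too narrow. No other library exceeded 0.401 CPM, the value in water deficit replicate 1.

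GLYMA_15G249200, on chromosome 15, was the second in level. It had 1, 6 and 4 counts in control, 1, 0 and 2 in water deficit, and 2, 2 and 0 in heat stress. Combined stress gave 60, 90 and 28 counts, or 2.69, 5.17 and 1.18 CPM, with a mean of 3.01 ± 2.02 CPM (SD, n = 3). Again replicate 2 was the highest, and replicate 3 was close to the limit of 1 CPM, with a 95% Wilson interval of 0.814 to 1.70 CPM. Without replicate 2 the mean was 1.93 CPM. The highest of the other libraries was control replicate 2, at 0.306 CPM.

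The genes below these are described by rank, since IDs without names say little to a reader. The third gene, on chromosome 8, had 0 counts in all 3 control libraries, 6, 0 and 1 in water deficit, 10, 5 and 0 in heat stress, and 38, 85 and 58 in combined stress, a mean of 3.01 ± 1.66 CPM (SD, n = 3). In the count table it thus showed a few reads in both single stresses and none in control, whereas the FPKM table lists it at 0.163 and 0.432 FPKM in control replicates 2 and 3. The fourth, on chromosome 18, had counts in 8 of the 9 libraries outside combined stress, the most of the 21 (3, 2 and 4 in control, 9, 8 and 4 in water deficit, 7, 6 and 0 in heat stress) and 64, 62 and 37 in combined stress. The gene on chromosome 13 was the opposite case. Outside combined stress it had 8 counts in control replicate 1 and 0 in the other 8 libraries, and it had 40, 44 and 48 counts in combined stress, or 2.11 ± 0.376 CPM (SD, n = 3).

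Each of the remaining 16 genes had a combined-stress mean between 1.22 and 2.38 CPM. Over all 21 the median of these means was 2.07 CPM, with 3 genes at 3 CPM or more and 10 under 2 CPM. Their 63 counts in combined stress ran from 18 to 138 with a median of 38, and the highest of their 189 counts in the other libraries was 11. The label of near silence therefore holds as a low level and not as a complete absence. Counts of 0 made up 97 of those 189 values, no gene was at 0 in all 9 libraries, and a gene was at 0 in 1 to 8 of them, with a median of 5. In all 3 libraries of a group, 3 genes had 0 counts in control, 3 in water deficit and 4 in heat stress.

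**Figure D2:**
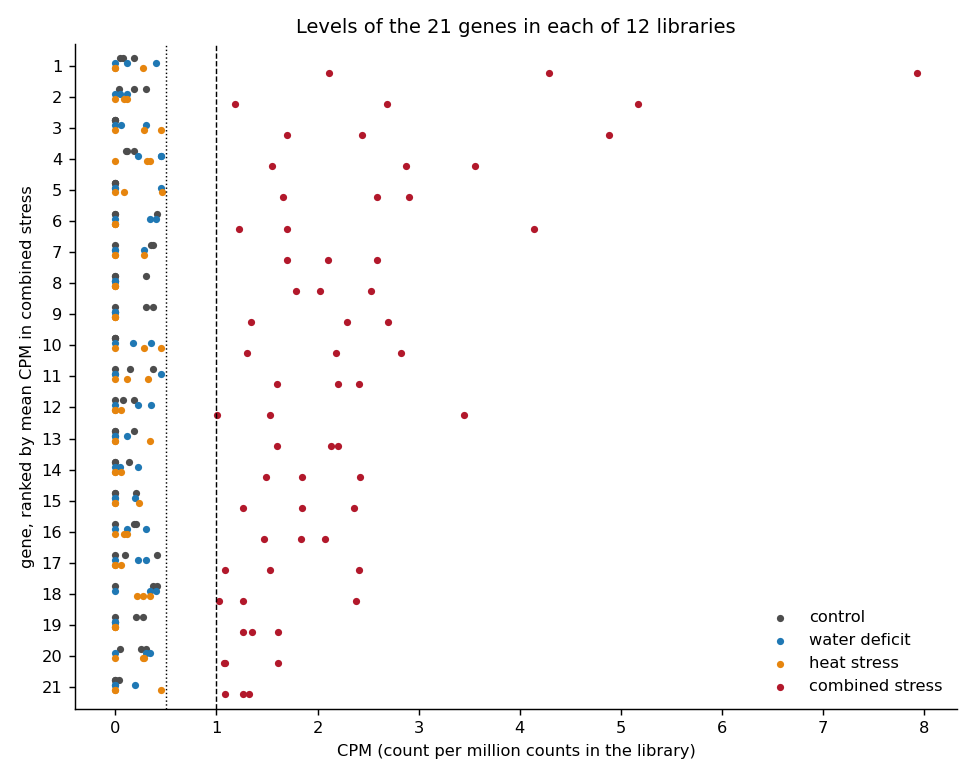
CPM of each of the 21 genes (rows, ranked by combined-stress mean) in every library, 1 point per library and coloured by group. The dotted and dashed lines mark the limits of 0.5 and 1 CPM. The combined-stress points spread widely in the top rows, up to 7.93 CPM, and lie close to the limit of 1 CPM in the lowest rows.

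The distance between the groups was small in reads for most genes. The lowest combined-stress library was 2.43 to 6.54 times as high as the highest of the other 9, with a median of 3.65, and for 4 genes by more than 5 times. Over all 57147 IDs, 5.53% had all 3 combined-stress libraries above the other 9, and the 21 genes do so because of how they were chosen. Counting error alone was sizeable at these depths. The lower 95% Wilson bound reached 1 CPM in all 3 combined-stress libraries for 10 of the 21 genes, and the upper bound stayed under 0.5 CPM in all of the other 9 libraries for 0 of 21. Even numbers made up 68.3% of the 63 counts in combined stress, and among other genes with a like level and count they made up 57.0 to 66.1% in those libraries. Outside combined stress the share among such other genes was 83.7% in water deficit replicate 2 and 72.4% in heat stress replicate 3. It was 55.1 to 63.8% in the remaining libraries. The number of independent fragments behind a count may thus be smaller than the count.

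Genes just inside and just outside the limits of 0.5 and 1 CPM were close in value. The 3 genes nearest the lower limit on the inside had a highest value of 0.451, 0.451 and 0.462 CPM outside combined stress, and the 3 nearest on the outside had 0.501, 0.501 and 0.511. At the limit of 1 CPM, the lowest combined-stress value was 1.01, 1.03 and 1.08 CPM inside and 0.966, 0.987 and 0.987 outside. The upper limit on the mean left out 2 genes, whose combined-stress replicates differed widely. One had 58.8, 9.88 and 1.09 CPM in replicates 1 to 3, and the other had 14.9, 27.9 and 2.90 CPM. No gene lay just under the upper limit, since the highest mean inside was 4.77 CPM.

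Among themselves the 3 combined-stress libraries were not equal for the 21 genes. The highest level was in replicate 2 for 16 genes, in replicate 1 for 4 and in replicate 3 for 1, and TMM scaling (edgeR's correction for library composition) gave the same counts. Of 7649 other IDs with a combined-stress mean in the same range, replicate 2 was the highest for 33.6%, replicate 1 for 27.9% and replicate 3 for 38.5%. The coefficient of variation over the 3 libraries ran from 0.0965 to 0.669, with a median of 0.302, beside a median of 0.334 for the 7649 IDs. The 7649 IDs were matched on the mean alone, whereas the 21 also had to reach 1 CPM in each library. That limit cuts off low replicates, so nothing is read from the difference between the medians. The highest library was less than 2 times the lowest for 11 genes and between 2 and 4.4 times for 10. The steadiest was the lowest-ranked gene, on chromosome 15, with 1.26, 1.32 and 1.09 CPM, and the most variable was GLYMA_15G249200.

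Applying the same limits with another group as the high one gave few genes. A gene under 0.5 CPM in all libraries of the other 3 groups, and at 1 CPM or more in all 3 of its own, was found 1 time for control, 1 time for water deficit and 0 times for heat stress, against 21 for combined stress. Water deficit and heat stress each include 1 of the libraries that stood apart at low counts, which can affect their numbers. Without that library, the limits gave 1 gene for water deficit and 2 for heat stress. In the reverse direction, 4 genes were at 1 CPM or more in all 9 libraries without combined stress, with a mean there under 10 CPM, and under 0.5 CPM in all 3 with it. These counts depend on the limits. With a lower limit of 1 CPM in place of 0.5, they became 119 for combined stress, 8 for control, 5 for water deficit and 5 for heat stress. With a lower limit of 0.25 CPM they were 2 for combined stress and 0 for each other group, and with a limit of 2 CPM in the high group they were 1 and 0.

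The limits were also applied with 1 library left out, and the genes chosen were then read in that library. Those that reach 1 CPM in a left-out combined-stress library are the 21 themselves and any gene above the upper limit, so the choice fixes their number, and what varies is how many others were chosen with them. Leaving out combined-stress replicate 1, 37 genes met the limits in the other 11 libraries. In the left-out library 22 of them (59.5%) reached 1 CPM, 10 lay between 0.5 and 1 CPM, 5 lay under 0.5, and 33 of the 37 stood above every library of the other groups. Of all 15727 IDs under 0.5 CPM in the 9 libraries without combined stress, 0.719% reached 1 CPM in that library.

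Leaving out combined-stress replicate 2, 28 genes were chosen, of which 22 (78.6%) reached 1 CPM in it and 27 stood above every other-group library, beside 0.935% of the 15727 IDs at 1 CPM or more. Leaving out replicate 3, 58 genes were chosen. Of these, 21 (36.2%) reached 1 CPM in it, 15 lay between 0.5 and 1 CPM and 22 lay under 0.5, 8 of them at 0 counts, beside 0.750% of the 15727 IDs. The median level in the left-out library was 1.35, 2.27 and 0.777 CPM for replicates 1, 2 and 3. The number of genes chosen was thus lowest without replicate 2 and highest without replicate 3.

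The same exercise in the other groups started from fewer genes. Leaving out control replicates 1, 2 and 3 in turn gave 2, 2 and 1 genes that were high in the other 2 control libraries, of which 1 each time reached 1 CPM in the library left out. Water deficit gave 2, 1 and 3 genes, of which again 1 reached it each time. Heat stress gave 5, 5 and 2 genes, of which 0 reached 1 CPM. Here too the choice fixes the number, since the gene that reached 1 CPM was always the 1 that met the limits in all 12 libraries. Heat stress had 0 such genes. Of all IDs under 0.5 CPM in the other 3 groups, 0.0601 to 0.0868% reached 1 CPM in a left-out control library. The share was 0.0921 to 1.26% in water deficit and 0.219 to 0.761% in heat stress. No test was made of the difference between groups.

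**Figure D3:**
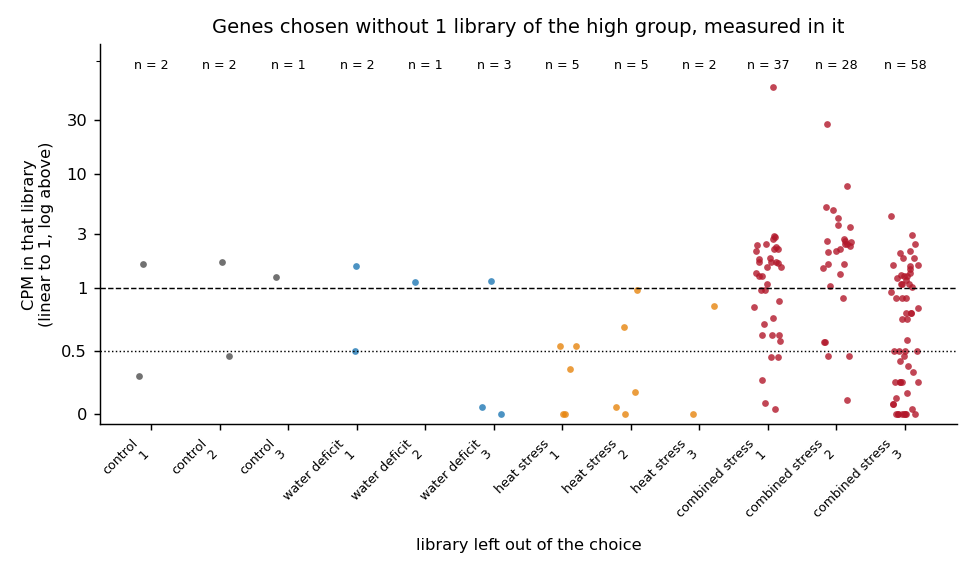
CPM in a left-out library (vertical axis, linear to 1 and logarithmic above) of the genes that met the limits in the other 11 libraries with its group as the high one, 1 point per gene, and n is the number of genes chosen. Lines mark 0.5 and 1 CPM. For combined stress 28 to 58 genes were chosen and 21 or 22 of them reached 1 CPM, and for each other group 1 to 5 were chosen and at most 1 did. The choice of genes fixes how many reached 1 CPM.

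Libraries outside combined stress were left out in the same way. By the rule, the genes gained beyond the 21 are those at 0.5 CPM or more in the library left out. The choice thus fixes that number as well. Leaving out water deficit replicate 1 gave 36 genes, and 15 of these were at 0.5 CPM or more in that library (11 up to 1 CPM and 4 above), with a highest value of 2.45 CPM. Water deficit replicate 1 still lay below all 3 combined-stress libraries for all 36. Leaving out any other library of control, water deficit or heat stress gave 21 to 28 genes. Those chosen without water deficit replicate 2 numbered 25, of which 4 were at 0.5 CPM or more in it, and those without heat stress replicate 3 numbered 28, of which 7 were.

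In edgeR's quasi-likelihood fit over 38737 genes, all 21 passed the filter on low counts, through the combined-stress libraries alone. Against control, 7 of the 21 were called higher at a Benjamini-Hochberg adjusted p under 0.05, beside 5.39% of all genes tested. Against water deficit 6 were called higher, beside 5.25%, and against heat stress 7, beside 1.64%. The rule used these contrasts, so nothing is read from the counts. The 3 comparisons share the combined-stress libraries, and 2 genes were called in all 3, 12 in at least 1 and 9 in none. DESeq2 called 13, 14 and 12 of the 21 higher in the same comparisons, beside 7.73, 7.87 and 3.19% of all genes. With limma-voom 19, 13 and 5 were called, beside 6.82, 6.09 and 2.02%.

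For heat stress against control edgeR called 0 of the 21, beside 1.89% of all genes, and for water deficit against control 0, beside 0.0955%. In each, 5 of the 21 had an unadjusted edgeR p under 0.05, beside 13.6 and 4.35% of all genes. DESeq2 and limma-voom likewise called 0, beside 3.75 and 0.318% of all genes with DESeq2 and 2.07 and 0.0852% with limma-voom. The log2 changes of the 21 ran from -5.22 to 5.43 for heat stress and from -5.22 to 4.93 for water deficit. They rest on counts of 11 or fewer, since the limit of 0.5 CPM kept all of these values low, and nothing is read from them. The interaction, which asks whether the log2 change under both stresses departs from the sum of the single changes, was called for 0 of the 21 by edgeR and limma-voom, beside 0.139 and 0.137% of all genes, and for 3 by DESeq2, beside 1.22%. For 10 of the 21 its unadjusted edgeR p was under 0.05, beside 10.6% of all genes. The rule, which asks for low levels in 3 groups and a higher one in the fourth, used this contrast too, and nothing is read from these counts.

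The authors' FPKM values, which scale by gene length as well as by depth, gave another picture of the same libraries. They were not the deposited counts divided by a length. Of the 252 values of the 21 genes in 12 libraries, 25 had 0 counts with an FPKM above 0, and 23 had counts with an FPKM of 0. In combined stress the mean FPKM of the 21 genes ran from 0 to 6.83. The order differed from that in CPM. GLYMA_16G037600, the first in CPM, had 0.617, 3.57 and 1.92 FPKM in replicates 1 to 3, and GLYMA_15G249200 had 5.19, 13.1 and 2.25 FPKM. The fourth gene, on chromosome 18, had 5.33, 10.1 and 4.13 FPKM.

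In the FPKM table, 2 of the genes exceeded 1 FPKM in a library outside combined stress. The fourth gene had 2.66 and 2.05 FPKM in water deficit replicates 1 and 2, 1.14 in control replicate 3 and 1.10 in heat stress replicate 2. In heat stress replicate 3 it had 0 counts and 0.832 FPKM. GLYMA_15G249200 had 1.13 FPKM in water deficit replicate 1, where it had 1 count. All others stayed at or below 1 FPKM in these libraries, and 17 of the 21 stayed under 0.5 in all 9. In FPKM, all 3 combined-stress libraries lay above the other 9 for 19 of the 21 genes, beside 5.3% of all 57147 IDs, in the same libraries that chose the genes.

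The other 2 genes were exceptions of different kinds. One on chromosome 18, the twentieth in level, had 24, 28 and 26 counts in combined stress and was listed at 0 FPKM in all 12 libraries. The gene on chromosome 14 had 63, 38 and 31 counts in combined stress and 0.488, 0.836 and 0 FPKM. Of the 34287 IDs with a combined-stress mean of at least 1 CPM, 0.811% were listed at a mean of 0 FPKM. The ratio of mean FPKM to mean CPM in combined stress had a median of 0.501 for the 21 genes and 0.479 for the 34287 IDs, whose central 90% lay between 0.151 and 1.49. It lay below that range for 2 of the 21 (0 and 0.0579) and above it for 2 (2.27 and 2.44).

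Using the same limits on FPKM in place of CPM gave 23 genes, of which 0 were among the 21. Of these 23, 17 were at 1 CPM or more in all 3 combined-stress libraries, and 5 were under 0.5 CPM in all 9 others. Only 3 of the 21 genes reached 1 FPKM in every combined-stress library. The membership thus rested on the count table, from which the FPKM table differs by more than length.

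**Figure D4:**
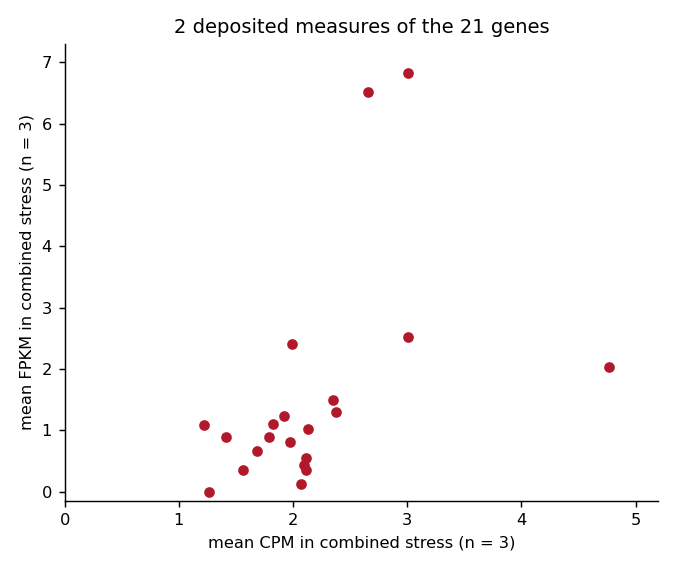
Mean FPKM (vertical axis) against mean CPM (horizontal axis) of the 21 genes in the 3 combined-stress libraries, 1 point per gene. One gene lies at 0 FPKM with 1.26 CPM, and 2 genes lie above 6 FPKM at 2.66 and 3.01 CPM.

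By their IDs the 21 genes were spread over 12 of the 20 chromosomes. Chromosome 18 held 4 of them (19.0%, beside 5.44% of all IDs with a chromosome) and chromosome 15 held 3 (14.3%, beside 4.99%). Chromosomes 5, 6, 8 and 9 held 2 each. None of the 1250 IDs of the form ENSRNA was among the 21. No pair of the 21 was adjacent by locus number.

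Genes next to the 21 were read out because the rule did not use their values. The nearest ID on each side by locus number gave 42 neighbours, of which 27 passed the filter on low counts. In combined stress against control, 6 of the 27 were called by edgeR (22.2%, beside 13.9% of all genes tested), 4 higher and 2 lower. The higher calls made up 14.8% of the 27, beside 5.39% of all genes, and the lower calls 7.41%, beside 8.56%. The median log2 change of the 27 was 0.40, beside 0.012 for all genes, and 17 of them had a log2 change above 0, whether or not it passed the test. Without the filter on low counts 36 neighbours were tested, their median log2 change was 0.11, and 5 were called (13.9%, beside 10.7% of all genes). Without water deficit replicate 2 or without heat stress replicate 3, edgeR likewise called 6 neighbours, 4 higher and 2 lower. For combined stress against water deficit edgeR called 6 of the 27 (22.2%, beside 13.4% of all genes), 5 higher and 1 lower. Against heat stress it called 4 (14.8%, beside 5.25%), 2 higher and 2 lower. With 2 IDs on each side, 6 of 54 were called in each of these comparisons (11.1%). In heat stress against control and in water deficit against control edgeR called 0 of the 27, beside 1.89 and 0.0955% of all genes. In each, 3 had an unadjusted edgeR p under 0.05, beside 13.6 and 4.35% of all genes. DESeq2 called 1 and 0, beside 3.75 and 0.318%, and limma-voom 0 in both, beside 2.07 and 0.0852%.

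Among the neighbours called, the largest change was in the one that follows the gene on chromosome 14. It had 0, 0.255 and 1.01 CPM in control, 0, 0 and 0.114 in water deficit, 0.449, 1.10 and 1.40 in heat stress, and 5.88, 11.2 and 4.45 in combined stress. All 3 combined-stress libraries lay above the other 9, and the rise against control passed the test (log2 change 4.03, SE 0.96, edgeR adjusted p = 0.00844), whereas the difference from heat stress did not (edgeR adjusted p = 0.0829). Without combined-stress replicate 2 the call against control was lost (edgeR adjusted p = 0.0706, and 6.27e-05 to 0.0706 over 19 alternatives). Its lowest levels were in water deficit, and it was no member because it exceeded 0.5 CPM in 3 libraries, 1 of control and 2 of heat stress.

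Next among those called came the neighbour that follows the fourth gene, on chromosome 18. Another on that chromosome, after the twentieth gene, had a larger log2 change of 2.98 (SE 1.59) that did not pass (edgeR adjusted p = 0.254). The neighbour after the fourth gene had 0.752, 0.971 and 1.75 CPM in control, 1.35, 1.01 and 0.571 in water deficit, 0.899, 1.16 and 3.01 in heat stress, and 9.56, 9.77 and 3.87 in combined stress. Its combined-stress libraries again lay above all others, and it passed the test against control (log2 change 2.68, SE 0.59, edgeR adjusted p = 0.00446), against water deficit (edgeR adjusted p = 0.00309) and against heat stress (edgeR adjusted p = 0.0368). The other 2 higher neighbours were abundant genes with small changes. One, after the third gene on chromosome 8, rose from 53.6 ± 3.69 to 83.2 ± 10.1 CPM (SD, n = 3 each, log2 change 0.57, SE 0.15, edgeR adjusted p = 0.0145). Its call was lost without control replicate 2, combined-stress replicate 1 or combined-stress replicate 3 (edgeR adjusted p = 0.074, 0.061 and 0.0653, and 0.00139 to 0.074 over 19 alternatives). The other, after the twelfth gene on chromosome 15, rose from 31.4 ± 1.28 to 51.6 ± 5.04 CPM (SD, n = 3 each, log2 change 0.66, SE 0.15, edgeR adjusted p = 0.00451). Its heat-stress level was 39.2 ± 3.01 CPM (SD, n = 3), and combined stress did not pass against it (edgeR adjusted p = 0.243), whereas the neighbour on chromosome 8 did (edgeR adjusted p = 0.0216).

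Both lower neighbours were on chromosome 18. The one after the ninth gene fell from 34.8 ± 1.15 CPM in control to 20.5 ± 2.40 in combined stress (SD, n = 3 each, log2 change -0.83, SE 0.16, edgeR adjusted p = 0.00129). Combined stress passed against heat stress for it (edgeR adjusted p = 0.0435) and not against water deficit (25.7 ± 1.81 CPM, SD, n = 3, edgeR adjusted p = 0.101). The one before the twentieth gene fell from 50.2 ± 2.99 to 38.2 ± 5.02 CPM (SD, n = 3 each, log2 change -0.46, SE 0.14, edgeR adjusted p = 0.0366). For it, combined stress passed against water deficit (53.9 ± 2.79 CPM, SD, n = 3, edgeR adjusted p = 0.0117) and not against heat stress (edgeR adjusted p = 0.208). The call against control was lost in 10 of 19 alternatives (adjusted p from 0.0177 to 0.202). They included library size alone, DESeq2's size factors, no filter and the replicate number as a block (edgeR adjusted p = 0.0528 with the block), and the fits without control replicate 1, 2 or 3, water deficit replicate 3, or combined-stress replicate 1 or 2. In combined stress against control, a gene beside one of the 21 therefore lay higher, lower or within the error, and most (21 of 27) did not pass. With 2 IDs on each side, 84 neighbours gave 54 tested genes, of which 9 were called (16.7%, beside 13.9% of all genes, 5 higher and 4 lower). Their median log2 change over the 54 was 0.21, beside 0.012 for all genes. The strand setting of the counting is not given in the sources used here, so reads of overlapping or antisense genes cannot be told apart, and whether reads are shared between a gene and its neighbour was not tested.

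**Figure D5:**
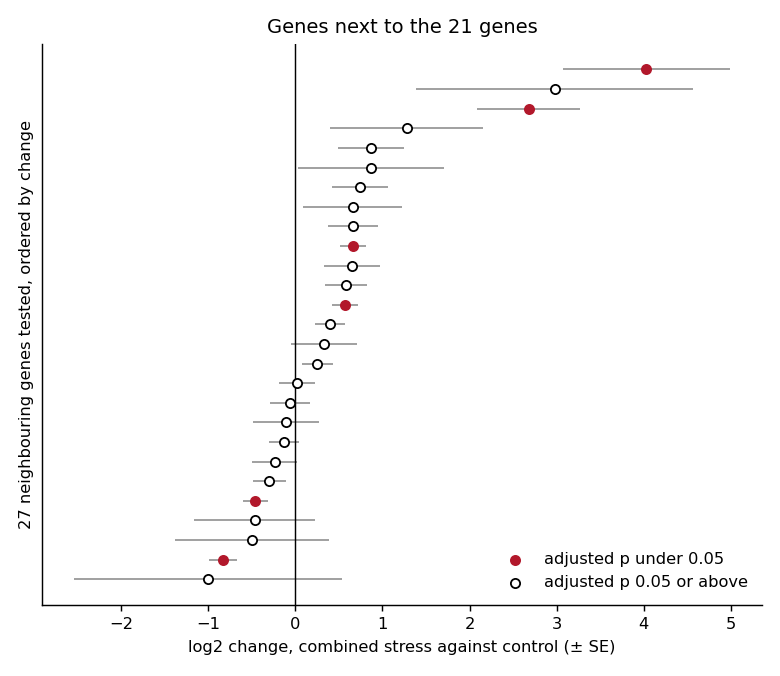
The log2 change in combined stress against control (horizontal axis, points with SE bars) of the 27 neighbouring genes that were tested, ordered by change. Filled points passed an edgeR adjusted p under 0.05, 4 to the right of 0 and 2 to the left, and the 2 filled points farthest right are at 4.03 and 2.68.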

How the data were processed

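RNA of pooled pods was sequenced in 12 libraries, 3 for each of 4 groups, and groups and replicate numbers came from the sample titles. The authors deposited read counts per gene and FPKM per gene, each with 1 column per library. HISAT2 2.2.1 is named in the submitters' processing notes. Its role, the counting tool, the strand setting, the build and the annotation are not given in the sources used here.

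CPM is the deposited count divided by the library total, and FPKM was used as deposited. The 21 genes, the lists and the comparisons were chosen with earlier results of these data known. Without gene names, the rule for named genes allowed the 2 members with the highest combined-stress mean, and the lists planned from words in gene descriptions and the tissue markers could not be applied. The neighbours described singly were chosen after their values were seen. A neighbour is the nearest ID by locus number on the same chromosome.

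All-gene tests used edgeR 4.0.16 in R 4.3.3 (quasi-likelihood, robust, TMM factors from 0.951 to 1.06, filter by group, all 12 libraries in 1 fit, Benjamini-Hochberg adjustment over 38737 genes). The SE is the log2 change divided by the square root of F, which is approximate. DESeq2 1.42.0, limma-voom (limma 3.58.1), other scalings, filters and limits, the replicate block and each library left out were alternatives. The fit was tested on simulated counts. Replicates of a group differed by more than counting noise (chi-square per degree of freedom from 10.0 to 39.8), so none was counted as a copy. Depth and its precision are given in the report.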

Additional observations from a re-analysis of the deposited data

How the results depend on the processing

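The number of genes meeting the rule followed the limits closely. It was 2 with a lower limit of 0.25 CPM, 119 with a lower limit of 1 CPM and 1 with a limit of 2 CPM in combined stress, and it stayed within 1.5 times with TMM scaling (19, all among the 21), no upper limit (23) and FPKM (23, 0 among the 21). Leaving out 1 library gave 21 to 58, each choice holding all 21, since fewer libraries make the rule easier to meet, and more than 1.5 times as many without water deficit replicate 1 (36), combined-stress replicate 1 (37) or replicate 3 (58). Leaving out water deficit replicate 2 and heat stress replicate 3 together, an alternative chosen after seeing the data, gave 32. With the mirrored limits, also tried under settings chosen after seeing the data, control gave 0 genes with a lower limit of 0.25 CPM, 8 with 1 CPM, 0 with a limit of 2 CPM and 0 in FPKM. Water deficit gave 0, 5 and 0 under the first 3 of these, and heat stress gave 5 with a lower limit of 1 CPM, 1 with TMM scaling and 1 in FPKM. Leaving out 1 library, control gave 1 to 2, water deficit 1 to 3 and heat stress 0 to 5.

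The number of neighbours called stayed within 1.5 times of 6 in all 22 alternatives, and was 4 to 7 with 1 library left out. The number tested differed between alternatives, so shares are given too. It was 6 of 27 in the main fit (22.2%, beside 13.9% of all genes) and 9 of 54 with 2 IDs on each side (16.7%, beside 13.9%). Without the filter it was 5 of 36 (13.9%, beside 10.7%). The 4 higher calls alone, also counted as an alternative, are a part of the 6. With the replicate number as a block, 5 neighbours were called (4 higher, 1 lower), and 1 lower call was lost. Correlations of same-numbered deviations ran from -0.219 to 0.142 over genes. The sample titles do not say whether same-numbered libraries were handled together, and these correlations cannot decide it. The block is given here for completeness. Over all genes the block gave 4963 calls for combined stress against control, beside 5403.

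Counts over all genes moved most with the threshold, the tool and the libraries. At an adjusted p under 0.01, combined stress had 2709 calls against control, 2456 against water deficit and 671 against heat stress, and heat stress and water deficit had 267 and 3 against control. DESeq2 gave 3139 calls for combined against heat stress, 1454 for heat stress against control and 123 for water deficit against control. Leaving out 1 library gave 3196 to 6599 calls for combined stress against control, 3008 to 6484 against water deficit, 548 to 2601 against heat stress, 265 to 1022 for heat stress against control and 4 to 40 for water deficit against control. The cause of these changes was not tested. At 18 to 138 counts per gene in combined stress and 11 or fewer elsewhere, depth limits how well any of the 21 levels is known.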
